A study of Homo sapiens with 13 samples.

Results

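The genes described here transcribe replication-dependent histone genes or cut their transcripts at the 3′ end. They are 9 of the 67882 genes of the deposited count table, chosen by symbol for their role, with earlier results of these data known: NPAT and CASP8AP2, SLBP, LSM10 and LSM11, CPSF3, SYMPK, CSTF2 and ERI1. The RNA came from PC3 cells, an established human prostate cancer line, in which TIMP1 is targeted by a short hairpin RNA in every library. After 48 h the libraries fell into Vehicle (n = 3), Docetaxel at 1 nM (n = 4), Adapalene at 5 µM (n = 3) and Combo, the drugs together, for which the labels do not restate the doses (n = 3). Docetaxel is a microtubule-stabilising taxane and adapalene a synthetic retinoid. Replicates are technical by the study's own description and come from 1 hairpin line, and p-values here reflect no other variation.

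Messenger RNAs for the histones that package newly made DNA end in a short stem-loop instead of a poly(A) tail. NPAT gathers transcription of these genes at histone locus bodies in S phase, SLBP binds the stem-loop, and the U7 small nuclear ribonucleoprotein, with LSM10 and LSM11 in its ring, pairs with a sequence downstream of it. Together they recruit the endonuclease CPSF3 on the scaffold SYMPK, and the same endonuclease cuts most other pre-messenger RNAs before a poly(A) tail is added. In cycling cells SLBP protein is made for S phase and degraded at its end, a step set largely at the level of the protein, which RNA counts do not measure.

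The stem-loops that SLBP recognises are shown for 5 histone genes, 5′ to 3′ on the RNA's strand in genome letters. They are the genes of highest mean level among those with a match and 5 transcript bases on each side of it. The stem and loop are in capitals, with those 5 flanking bases on each side.
H2AC6: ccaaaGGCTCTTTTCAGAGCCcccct
H2BC21: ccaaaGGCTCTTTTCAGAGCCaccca
H2BC5: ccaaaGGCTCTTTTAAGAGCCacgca
H4C8: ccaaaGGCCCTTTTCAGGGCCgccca
H2BC4: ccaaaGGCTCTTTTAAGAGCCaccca
On GRCh38 they lie at chr6:26124664-26124689 (plus strand, H2AC6), chr1:149886183-149886208 (minus, H2BC21), chr6:26158582-26158607 (plus, H2BC5), chr6:26285126-26285151 (minus, H4C8) and chr6:26123467-26123492 (minus, H2BC4). GENCODE 29 transcripts were searched on the transcript strand for the consensus GGCNCTTTTNAGNGCC, where N is any base. A match counted only with 5 transcript bases on each side of it. Such a match was found in 28 of the 65 replication histone genes that have a transcript there, of 69 in the list. A transcript annotated to end at or just past the loop was not counted, so the other genes may hold the element. The form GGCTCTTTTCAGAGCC occurred in 15 of the 28 genes and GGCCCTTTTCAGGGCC in 5. Of the 28 genes, 21 have an annotated transcript that runs at least 200 bases past the loop.

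Levels are counts scaled to library size, as CPM, and corrected for composition by TMM. A gene is called when its edgeR p-value, adjusted by Benjamini and Hochberg's method over 15734 tested genes, is under 0.05. Library totals were 11948720 to 16235041 counts, and mitochondrial genes took 0.722 to 2.82% of them, above 2% in replicate 3 of Vehicle, Adapalene and Combo and in replicate 4 of Docetaxel. Epithelial markers were high in every library (KRT8 688 to 1410 CPM, EPCAM 164 to 267 CPM), while KLK2, a prostate luminal marker, was at 0, and KLK3 and the T cell marker CD3E had at most 1 count each. TIMP1, the hairpin's target, stood at 55 to 65 CPM in Vehicle, 56.2 to 71 in Docetaxel, 70.4 to 105 in Adapalene and 98.1 to 111 in Combo. It was higher than in Vehicle with adapalene (log2 fold change 0.59, adjusted p = 0.00532) and with both drugs (0.81, adjusted p = 0.000418), and its part in the results was not tested. Cells lacking the hairpin are not among these libraries. In bulk RNA, fewer cells with a transcript and less of it per cell cannot be told apart.

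Against Vehicle the clearest change among these genes was in CPSF3, the endonuclease, which was lower in all 3 treated groups. NPAT was lower with docetaxel. SLBP, LSM10, SYMPK and ERI1 passed the test in no comparison between groups. Of the 8 genes tested, 0 were higher and 2 lower in Docetaxel, 0 and 1 in Adapalene, and 0 and 1 in Combo, each against the same Vehicle libraries. Over all tested genes 25.9%, 18.4% and 25.8% were called in those comparisons (13.2%, 9.25% and 13.5% higher, and 12.8%, 9.16% and 12.3% lower). The median log2 fold change of the 8 genes was −0.03, −0.10 and −0.10, beside −0.02, 0.02 and 0.02 over all genes tested.

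**Figure D1:**
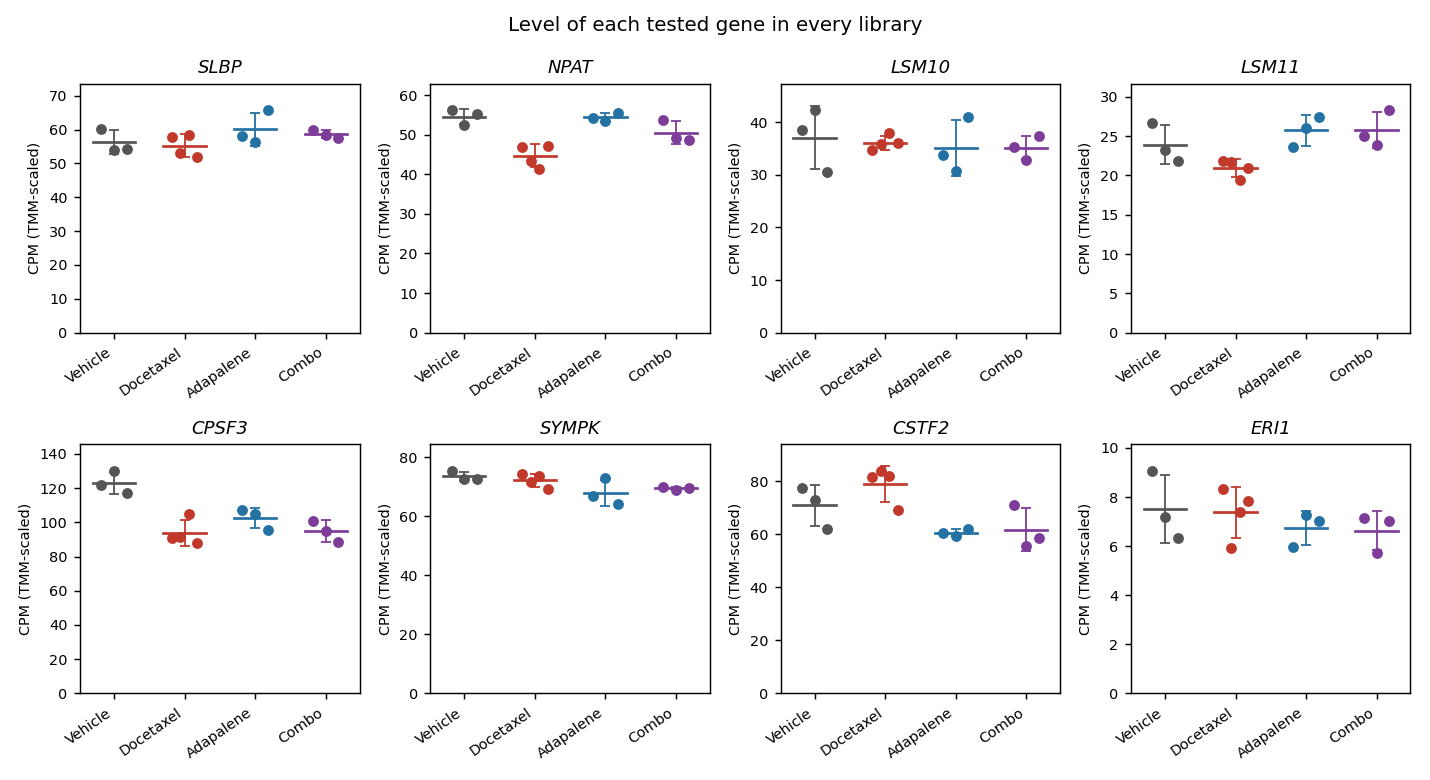
CPM (TMM-scaled) of the 8 tested genes in each of the 13 libraries, by group, with a line at the group mean and bars of 1 SD. The 3 Vehicle libraries lie above every treated library for CPSF3 (117 to 130 CPM against 87.8 to 107), and the 4 Docetaxel libraries lie below all others for NPAT.

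Among the transcription factors of the set, NPAT, the substrate of cyclin E and CDK2 that organises the histone locus body, lies on GRCh38 at chr11:108157215-108222642 (minus strand). Its level was 56.2, 52.4 and 55.2 CPM in Vehicle replicates 1 to 3 and 46.9, 43.4, 41.3 and 47.3 CPM in the 4 Docetaxel libraries, in the same order. Adapalene held 54.3, 53.4 and 55.6 CPM, and Combo 53.8, 49.3 and 48.6 CPM. Docetaxel libraries were low and overlapped no other group, Adapalene lay among Vehicle, and Combo began inside the Vehicle range and reached below it. The log2 fold change with docetaxel was −0.29 ± 0.07 (SE; 95% interval −0.44 to −0.14, adjusted p = 0.00815). It was 0.00 with adapalene (−0.16 to 0.15, adjusted p = 0.974) and −0.11 with both drugs (−0.27 to 0.05, adjusted p = 0.293). Combo stood 0.18 above Docetaxel on the log2 scale, without passing the test (0.03 to 0.33 unadjusted interval, adjusted p = 0.0808). Without the 4 libraries of high mitochondrial share it passed (0.23, adjusted p = 0.0489). In a direct comparison added after the data were seen, NPAT was lower in Docetaxel than in Adapalene (−0.28, adjusted p = 0.00783). That comparison called 1 of the 8 genes higher and 2 lower, and 14.1% and 15.6% of all genes.

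NPAT shares its promoter region with ATM, the kinase that signals DNA double-strand breaks, which is read from the opposite strand. In RefSeq their starts are 429 bases apart. In GENCODE 29, whose annotated transcripts differ from these, their exons share 143 bases, or 1.9% of NPAT's exon length. ATM moved in the same direction as its neighbour. Its level was 94.2, 88.4 and 99.2 CPM in Vehicle and 69.6, 67.3, 67.1 and 82.2 CPM in Docetaxel, a log2 fold change of −0.39 (adjusted p = 0.002). With adapalene the difference was −0.05 (adjusted p = 0.702), and with both drugs −0.27 (adjusted p = 0.0232). The ratio of NPAT to ATM counts was 0.557 to 0.597 in Vehicle, 0.576 to 0.673 in Docetaxel, 0.58 to 0.618 in Adapalene and 0.611 to 0.698 in Combo. The ratio therefore overlapped between Vehicle and each single drug and lay higher in the 3 Combo libraries than in Vehicle. With docetaxel only replicate 4 (0.576) overlapped, the library whose ATM value is flagged in the closing section. Docetaxel replicates 1 to 3 (0.673, 0.645 and 0.615) lay above Vehicle. RefSeq's promoter table (GRCh38.p14, 250 bases before to 50 after the start) gives the NPAT window at chr11:108222589-108222888, shown because the neighbours moved together, and 72 of its bases are also in ATM's window. The capitals are the matches to CCAAT on either strand.
NPAT: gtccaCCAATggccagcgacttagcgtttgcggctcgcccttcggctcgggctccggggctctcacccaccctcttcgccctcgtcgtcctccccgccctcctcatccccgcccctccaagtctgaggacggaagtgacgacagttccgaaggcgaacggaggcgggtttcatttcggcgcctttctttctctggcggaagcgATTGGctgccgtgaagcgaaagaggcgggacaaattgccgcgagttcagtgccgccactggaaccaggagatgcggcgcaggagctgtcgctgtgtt
CCAAT occurs at −245 and −47 from the NPAT start. It is a common element, found on either strand in 34.6% of 35116 RefSeq promoter windows of this length.

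CASP8AP2 (FLASH), which joins NPAT at the locus body and ties LSM11 to the cleavage complex, could not be tested. It lies at chr6:89829894-89874436 (plus strand) and held 8 counts over all 13 libraries, with 3 in Docetaxel replicate 1 and at most 2 in any other library. GENCODE 29 tags the gene as affected by a reference genome error. Of the 14 protein-coding genes with that tag in the table, 7 had at most 3 counts in every library against 5418 of 19864 without it (27.3%). The part of the tag in the low count was not tested, and these counts give no level of CASP8AP2 in the cells.

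SLBP, the protein that stays with histone messenger RNA from cleavage through translation, lies at chr4:1692800-1712555 (minus strand). Its level was 60.3, 54.1 and 54.2 CPM in Vehicle and 57.8, 53, 58.4 and 51.8 CPM in Docetaxel. Adapalene libraries held 58.1, 56.3 and 65.7 CPM and Combo libraries 59.8, 58.5 and 57.6 CPM. The ranges of all 4 groups overlapped. The log2 fold change against Vehicle was −0.03 with docetaxel (95% interval −0.19 to 0.13, adjusted p = 0.834), 0.09 with adapalene (−0.08 to 0.27, adjusted p = 0.439) and 0.06 with both (−0.11 to 0.23, adjusted p = 0.606).

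Transcripts of replication histone genes were counted in the same libraries, although selection for poly(A) leaves out histone RNA that ends at the stem-loop. The element with 5 bases on each side was found in annotated transcripts of 28 of these genes, as given above. Summed over the 69 replication histone genes, their level was 204 to 236 CPM in Vehicle, 717 to 946 in Docetaxel, 191 to 233 in Adapalene and 301 to 452 in Combo. Docetaxel and Combo libraries lay above all Vehicle libraries, and Adapalene overlapped Vehicle. Of the 35 histone genes that passed the filter on low counts, 32 were higher and 0 lower with docetaxel. That is 91.4% higher, against 13.2% of all tested genes. With adapalene 0 were higher and 2 lower (5.71% lower, against 9.16% of all tested genes). With both drugs 19 were higher and 0 lower (54.3% higher, against 13.5%). The filter needs enough counts in only as many libraries as the smallest group holds. A histone gene high only in Docetaxel could pass through that group, so these counts partly follow from the filter and are no test. The genes whose stem-loops are printed above all rose with docetaxel. On the log2 scale H2AC6 rose by 1.5 (adjusted p = 1.37e-06), H2BC21 by 2.34 (3.39e-06) and H2BC5 by 1.56 (2.9e-06). H4C8 rose by 2.21 (adjusted p = 3.86e-05) and H2BC4 by 2.17 (1.15e-07). These values cover only histone RNA kept by poly(A) selection, so their size cannot be set against the SLBP fold change. A link between SLBP and these histone counts was not tested. S phase markers are a list of 15 genes for replication and nucleotide supply. Their sum was 2580 to 3150 CPM in Vehicle, 1920 to 2330 in Docetaxel, 2350 to 2590 in Adapalene and 2130 to 2570 in Combo. With docetaxel 11 of the 15 were lower and 0 higher (73.3% lower, against 12.8% of all tested genes). With adapalene, where the histone sum overlapped Vehicle, 8 were lower and 1 higher (53.3% lower, against 9.16%). With both drugs 9 were lower and 0 higher (60% lower, against 12.3%). Their part in the levels of SLBP, NPAT or CPSF3 was not tested.

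**Figure D2:**
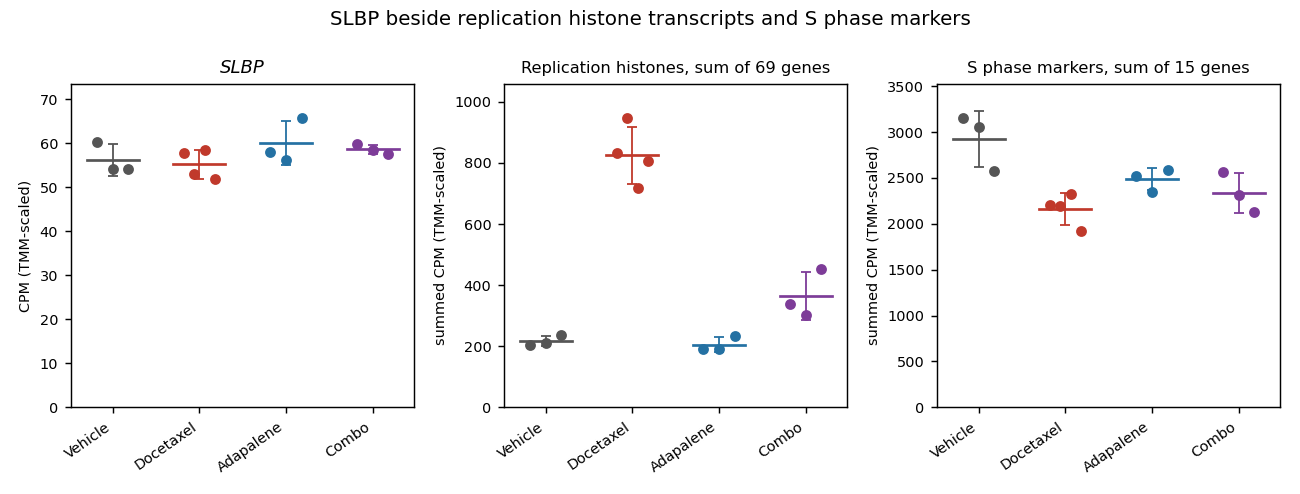
SLBP in CPM (left), the summed CPM of 69 replication histone genes (middle) and of 15 S phase markers (right), each point 1 library, with the group mean and 1 SD. SLBP overlaps between all groups, while the histone sum is 717 to 946 CPM in Docetaxel against 204 to 236 CPM in Vehicle.

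The proteins particular to the U7 ring are LSM10 and LSM11, which replace a pair of the Sm proteins found in spliceosomal particles. LSM10 (chr1:36391238-36397892, minus strand) held 38.5, 42.3 and 30.5 CPM in Vehicle and 34.7, 35.8, 37.9 and 36.1 CPM in Docetaxel. It held 33.7, 30.7 and 41 CPM in Adapalene and 35.3, 32.9 and 37.4 CPM in Combo. Vehicle replicates alone spanned the values of every other library. The interval of the log2 fold change ran from −0.27 to 0.20 with docetaxel and from −0.33 to 0.18 both with adapalene and with the drugs together. The adjusted p-values against Vehicle were 0.839, 0.69 and 0.682.

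LSM11, which also contacts CASP8AP2, lies at chr5:157743695-157760709 (plus strand). Its level was 26.7, 23.3 and 21.8 CPM in Vehicle, 21.9, 21.7, 19.4 and 21 CPM in Docetaxel, 23.6, 26.1 and 27.5 CPM in Adapalene, and 25, 23.9 and 28.3 CPM in Combo. Every Docetaxel library lay below every Adapalene and Combo library, and the highest of them was within the Vehicle range. No comparison with Vehicle passed the test (−0.19 with docetaxel, adjusted p = 0.167; 0.10 with adapalene, 0.508; 0.11 with both, 0.465). Combo exceeded Docetaxel by 0.29 ± 0.10 (SE; 0.09 to 0.50, adjusted p = 0.0362), and over all genes 24% were called in that comparison (12.8% higher and 11.2% lower). This call was lost in 9 of 21 alternatives, among them without any 1 of the 4 Docetaxel libraries, without Combo replicate 1 or 3, and without the 4 libraries of high mitochondrial share (adjusted p 0.0597 to 0.138). Docetaxel against Adapalene, added after the data were seen, gave −0.29 (adjusted p = 0.0332), where 29.7% of all genes were called.

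CPSF3, the endonuclease of both histone and poly(A) cleavage, lies at chr2:9423568-9473101 (plus strand) and had the highest CPM of the set. It held 122, 130 and 117 CPM in Vehicle and 90.7, 91.4, 105 and 87.8 CPM in Docetaxel. Adapalene libraries held 107, 105 and 95.6 CPM and Combo libraries 101, 95.1 and 88.7 CPM. No treated library reached the lowest Vehicle library, and the 3 treated groups overlapped one another. The log2 fold change was −0.39 ± 0.08 with docetaxel (SE; −0.55 to −0.23, adjusted p = 0.0018), −0.26 ± 0.08 with adapalene (−0.43 to −0.09, adjusted p = 0.0363) and −0.37 ± 0.08 with both (−0.55 to −0.20, adjusted p = 0.00417). The comparisons share the Vehicle libraries. The call with adapalene was lost without Vehicle replicate 1 or 2, Docetaxel replicate 1 or any 1 Adapalene library, and when only the groups compared were fitted (adjusted p 0.0503 to 0.137). Combo differed from Docetaxel by 0.02 (−0.14 to 0.18) and from Adapalene by −0.11 (−0.28 to 0.06).

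The interaction compares adapalene's effect in the presence and in the absence of docetaxel. For CPSF3 it was 0.28 (0.04 to 0.52, unadjusted p = 0.0228, adjusted p = 0.213 by edgeR). It was the 1 gene of the 8 with an unadjusted p under 0.05, and 0 of the 8 were called by edgeR or by DESeq2, where edgeR called 1.44% of all genes. Combo against Adapalene likewise gave 0 called by either tool and 0 with an unadjusted p under 0.05, with 0.0381% of all genes called by edgeR.

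The promoter of CPSF3 is printed because this gene was lower in each treated group, and that of CSTF2 because it holds the same motif nearest its start. Capitals mark TTTGGCGC, a form of the E2F element, in both, and CCGGAAGT, an ETS element, in CPSF3. The windows are chr2:9423404-9423703 and chrX:100820141-100820440, both on the plus strand of GRCh38.p14, from RefSeq.
CPSF3: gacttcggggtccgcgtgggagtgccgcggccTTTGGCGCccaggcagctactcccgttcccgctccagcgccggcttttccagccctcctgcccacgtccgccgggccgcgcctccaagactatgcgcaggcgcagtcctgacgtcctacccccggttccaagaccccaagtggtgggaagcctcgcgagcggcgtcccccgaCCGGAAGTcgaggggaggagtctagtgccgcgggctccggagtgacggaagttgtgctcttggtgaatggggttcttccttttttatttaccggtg
CSTF2: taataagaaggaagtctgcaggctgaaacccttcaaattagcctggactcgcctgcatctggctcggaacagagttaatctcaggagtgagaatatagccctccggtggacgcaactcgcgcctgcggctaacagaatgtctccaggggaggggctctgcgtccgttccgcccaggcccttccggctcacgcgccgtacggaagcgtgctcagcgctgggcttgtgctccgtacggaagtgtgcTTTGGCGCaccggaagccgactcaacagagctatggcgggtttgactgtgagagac
TTTGGCGC lies at −218 from the start in CPSF3, at −6 in CSTF2 and at −149 in CASP8AP2. These are 3 of the 8 genes of the set with a window in the table, and 0.652% of 35116 windows hold the motif on either strand. The forms TTTCCCGC (1.63% of windows) and TTTCGCGC (0.515%) matched none of the 8, nor did the palindromic NRF1 element (1.24%). CCGGAAGT lies at −46 in CPSF3 and in 4.14% of windows, and the long YY1 element at 10 past the start of SYMPK and in 0.849% of windows. Such a match describes letters in the window and is not a measurement of binding.

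SYMPK, the scaffold that holds CPSF3 in the cleavage complex, lies at chr19:45815410-45863290 (minus strand) and had the smallest ratio of highest to lowest library among the 8 genes. It held 75.3, 72.7 and 72.7 CPM in Vehicle, 74.2, 71.5, 73.6 and 69.1 CPM in Docetaxel, 66.9, 72.8 and 64 CPM in Adapalene, and 69.8, 68.8 and 69.7 CPM in Combo. Adapalene overlapped Vehicle by 1 library, and Combo lay just below Vehicle. Fold changes against Vehicle on the log2 scale were −0.03 (−0.16 to 0.10), −0.12 (−0.26 to 0.02) and −0.08 (−0.22 to 0.06), with adjusted p-values of 0.76, 0.236 and 0.373. Its exons share 41 bases, or 0.386% of their length, with an antisense gene.

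CSTF2, the RNA-binding subunit of the cleavage stimulation factor and part of the histone cleavage complex too, lies at chrX:100820359-100840932 (plus strand). It held 77.6, 72.9 and 62.2 CPM in Vehicle, 81.5, 83.9, 82 and 69.1 CPM in Docetaxel, 60.6, 59.3 and 61.9 CPM in Adapalene, and 71.1, 55.5 and 58.8 CPM in Combo. The 3 highest libraries were all from Docetaxel, whose replicate 4 stood below Combo replicate 1. Against Vehicle the log2 fold change was 0.16 with docetaxel (−0.05 to 0.36, adjusted p = 0.246), −0.23 with adapalene (−0.45 to 0, adjusted p = 0.146) and −0.20 with both (−0.42 to 0.03, adjusted p = 0.179). Between treatments Combo was lower than Docetaxel by −0.35 ± 0.10 (SE; −0.56 to −0.15, adjusted p = 0.0169). That call was lost without Docetaxel replicate 2 (adjusted p = 0.0506), Combo replicate 2 (0.0895) or Combo replicate 3 (0.0598). Docetaxel exceeded Adapalene by 0.38 (adjusted p = 0.00926) in the added comparison.

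CSTF2T, a retained copy of CSTF2 on another chromosome with a like function, was lower with docetaxel (−0.19, adjusted p = 0.0254) and with both drugs (−0.26, adjusted p = 0.00767), and with adapalene the value was −0.14 (adjusted p = 0.122). The ratio of CSTF2 to CSTF2T counts was 0.52 to 0.633 in Vehicle and 0.697 to 0.776 in Docetaxel, which did not overlap. It was 0.542 to 0.557 in Adapalene and 0.561 to 0.68 in Combo. No stretch of 120 bases, the read length, is shared between a transcript of the 8 tested genes and one of any gene outside them. The copy CSTF2T was included. Transcripts were compared on their own strand, so overlap with a gene on the opposite strand, such as NPAT with ATM, was not covered.

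ERI1, the exonuclease that trims the end of histone messenger RNA and takes part in its decay, lies at chr8:9002147-9116746 (plus strand) and was the least abundant gene tested, with 79 to 129 counts per library. Its level was 6.32 to 9.06 CPM in Vehicle, 5.92 to 8.32 in Docetaxel, 5.96 to 7.26 in Adapalene and 5.73 to 7.16 in Combo. The groups overlapped throughout. At these counts the interval with docetaxel ran from −0.37 to 0.32, with adapalene from −0.53 to 0.22 and with both from −0.54 to 0.20, so a fall of the size CPSF3 showed with adapalene (−0.26) lay inside each of them.

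**Figure D3:**
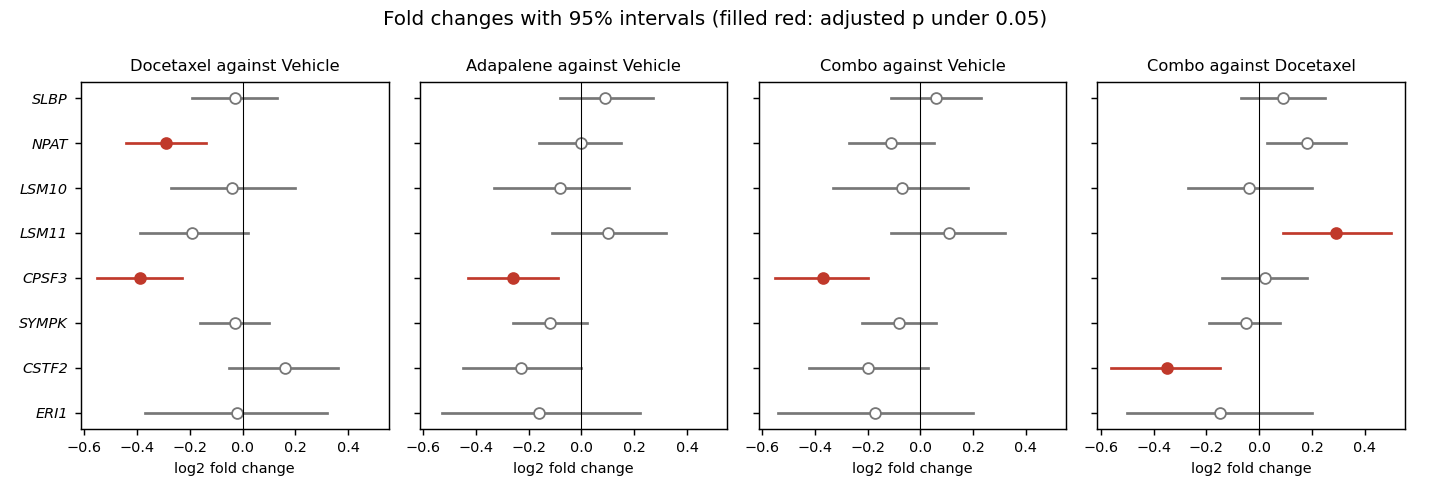
Log2 fold change (x axis) of each tested gene in 4 comparisons, with 95% intervals from edgeR not adjusted for the number of genes. Filled red points have an adjusted p under 0.05: NPAT and CPSF3 with docetaxel, CPSF3 with adapalene and with both drugs, and LSM11 and CSTF2 between Combo and Docetaxel.

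Divided by exon length, the Vehicle levels order as CPSF3 (32.6 ± 1.74 CPM per kb, SD, n = 3), CSTF2 (32.4 ± 3.61), SLBP (27.7 ± 1.75), LSM10 (24.8 ± 4.03), NPAT (7.25 ± 0.261), SYMPK (6.92 ± 0.141), LSM11 (3.64 ± 0.381) and ERI1 (1.18 ± 0.22). The ranges over Vehicle libraries overlapped between CPSF3 and CSTF2, CSTF2 and SLBP, SLBP and LSM10, and NPAT and SYMPK, so the order within those neighbours is not set beyond their spread. In Docetaxel the first place went to CSTF2 (36.2 ± 3.09 CPM per kb, n = 4), and CPSF3 stood at 24.9 ± 2.04. Scaled by the longest transcript instead, LSM10 moved to 36.9 CPM per kb, above SLBP and CSTF2.

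Across the 13 libraries the log2 CPM of these genes followed no single pattern. Over the 28 pairs, Pearson's r ran from −0.52 for LSM11 with CSTF2 to 0.647 for NPAT with LSM11. The value for SLBP with CPSF3 was −0.00313. Over all tested genes with a symbol, the 5 most like CPSF3 were PRPS2 (r = 0.977), IMPDH2 (0.966), ICMT (0.957), MDFIC (0.956) and HSDL2 (0.952). The 5 most like SLBP were TMEM199 (0.922), FHL1 (0.887), GLA (0.879), GPAT4 (0.866) and RHOQ (0.842). These values describe 13 libraries that share treatment groups, and the genes named are the top of the whole ranking.

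The other genes of the pathway, 55 in 5 roles, fell more often than they rose. Of the 51 that could be tested, 5 were higher and 13 lower with docetaxel (25.5% lower, against 12.8% of all tested genes). With adapalene 1 was higher and 15 lower (29.4% against 9.16%), and with both drugs 1 was higher and 21 lower (41.2% against 12.3%). Their median log2 fold change was −0.09, −0.14 and −0.18. NELFE (at most 2 counts), CPSF1 (at most 1), CTIF and LSM2 (both 0) were not tested. As for CASP8AP2, such counts give no level of these genes in the cells, and why they are low was not tested. The list was compiled with earlier results of these data known, and the counts describe it without a test of the list.

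Among the 6 other transcription genes, 1 was higher and 1 lower in each comparison with Vehicle (16.7% each way, beside 9.16% to 13.5% of all genes). POU2F1, the octamer factor of H2B promoters, held 60.8 ± 3.44 CPM in Vehicle (SD, n = 3), 55.8 ± 4.36 in Docetaxel (n = 4), 40.6 ± 3.69 in Adapalene and 41.4 ± 4.25 in Combo. It was lower with adapalene (log2 −0.58, adjusted p = 0.00109) and with both drugs (−0.55, adjusted p = 0.000839). HINFP, the factor of H4 promoters, was higher with docetaxel (0.27, adjusted p = 0.0183) and with both drugs (0.32, adjusted p = 0.0103). CCNE2, a cyclin whose kinase phosphorylates NPAT, was higher with adapalene (0.51, adjusted p = 0.0294). Its value with docetaxel was −0.38 (adjusted p = 0.0644).

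In the role of the U7 particle and histone-specific cleavage, 3 of 10 tested genes were lower with docetaxel, 4 with adapalene and 5 with both drugs (30%, 40% and 50%, where 12.8%, 9.16% and 12.3% of all genes were lower). CPSF2, the inactive partner with which CPSF3 pairs, was lower in all 3. It held 126, 116 and 120 CPM in Vehicle and 98.3, 98.5, 105 and 95.3 CPM in Docetaxel. Adapalene libraries held 95.9, 96.4 and 90.1 CPM and Combo libraries 88.1, 89.7 and 74.9 CPM. As with CPSF3, no treated library reached the Vehicle range, and the log2 fold changes were −0.28 (adjusted p = 0.00887), −0.36 (0.005) and −0.52 (0.000273). Of the 5 Sm proteins of the list, which also serve in the spliceosome, SNRPD3 was lower with docetaxel (−0.51, adjusted p = 0.000495) and with both drugs (−0.30, adjusted p = 0.0203), and SNRPF was lower with adapalene (−0.47, adjusted p = 0.00199) and with both (−0.47, adjusted p = 0.00122). SNRPE was lower with adapalene (−0.32, adjusted p = 0.00951) and with both (−0.38, adjusted p = 0.00207), SNRPB with adapalene (−0.27, adjusted p = 0.0429), and SNRPG passed in none of the 3. Between Docetaxel and Adapalene, the comparison added after the data were seen, SNRPD3 was lower in Docetaxel (−0.44, adjusted p = 0.00117), and SNRPF (0.36, adjusted p = 0.00426) and SNRPB (0.29, adjusted p = 0.0146) were higher. SNRPE (0.18, adjusted p = 0.0681) and SNRPG (0.11, adjusted p = 0.733) did not pass. The 1 gene of this role that rose with docetaxel was ZNF473 (0.37, adjusted p = 0.0101), a zinc finger protein known to bind the U7 particle, named after its value was seen.

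In general cleavage and polyadenylation, 3 of 15 tested genes were lower with docetaxel, 4 with adapalene and 7 with both drugs. These are 20%, 26.7% and 46.7%, beside 12.8%, 9.16% and 12.3% of all genes. CPSF4, a zinc finger subunit that reads the poly(A) signal, was lower in all 3 (−0.28, −0.27 and −0.35, adjusted p = 0.0109, 0.0261 and 0.00404). PAPOLA, the poly(A) polymerase, was lower with adapalene (−0.35, adjusted p = 0.00549) and with both drugs (−0.38, adjusted p = 0.00214). NUDT21, which guides the choice of poly(A) site, was lower with docetaxel (−0.36, adjusted p = 0.00597) and with both (−0.28, adjusted p = 0.0318). PCF11, a termination factor and the 1 gene of this role that rose with docetaxel (0.47, adjusted p = 0.0147), was named after its value was seen.

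Of the 12 tested genes for translation and decay of histone messenger RNA, 1 rose and 2 fell with docetaxel, 4 fell with adapalene and 5 with both drugs. With docetaxel that is 8.33% higher and 16.7% lower, near the 13.2% and 12.8% of all genes. With adapalene 33.3% were lower (9.16% of all genes) and with both drugs 41.7% (12.3%). The gene that rose was TUT7, which adds uridines to RNA ends. Its level was 40, 41.9 and 46.2 CPM in Vehicle and 66.5, 68.2, 54.9 and 63.1 CPM in Docetaxel, with no overlap, a log2 fold change of 0.57 (adjusted p = 0.000385). Combo, at 46.8, 42.9 and 51.3 CPM, lay below Docetaxel (−0.43, adjusted p = 0.00309), and the interaction was −0.46 (adjusted p = 0.0887). LSM6, of the ring that binds the uridine tail, was lower with adapalene (−0.69, adjusted p = 0.00154) and with both drugs (−0.64, adjusted p = 0.00143). MIF4GD, which joins SLBP to translation initiation, was lower in all 3 comparisons (−0.35, −0.56 and −0.57, adjusted p = 0.0494, 0.0109 and 0.00645).

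Of the 8 genes that act in SLBP's degradation, 1 rose and 4 fell with docetaxel, 2 fell with adapalene and 3 with both drugs. The share lower was 50%, 25% and 37.5%, beside 12.8%, 9.16% and 12.3% of all genes. CCNF, the F-box protein that targets SLBP after S phase, held 66.7, 63.2 and 50.1 CPM in Vehicle and 45, 46.5, 49.8 and 45.4 CPM in Docetaxel. It held 32.4, 32.5 and 36.6 CPM in Adapalene and 38, 36 and 33 CPM in Combo. All treated libraries lay below Vehicle, and the log2 fold changes were −0.36 (adjusted p = 0.0112), −0.83 (0.000168) and −0.75 (0.000158). CCNA2 was lower in the same 3 comparisons (−0.34, −0.54 and −0.67, adjusted p = 0.00706, 0.000961 and 0.00011), and CDK1, its kinase partner, with docetaxel (−0.42, adjusted p = 0.00143) and with both drugs (−0.33, adjusted p = 0.0103). These 3 genes are also expressed with the cell cycle. The summed level of 15 G2 and M phase markers was 2830 to 3330 CPM in Vehicle, 2560 to 2710 in Docetaxel, 1720 to 1860 in Adapalene and 1560 to 2000 in Combo, and its part in their change was not tested. The 1 gene of this role that rose with docetaxel was FEM1C, a substrate receptor of a ubiquitin ligase (0.43, adjusted p = 0.00549), named after its value was seen.

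**Figure D4:**
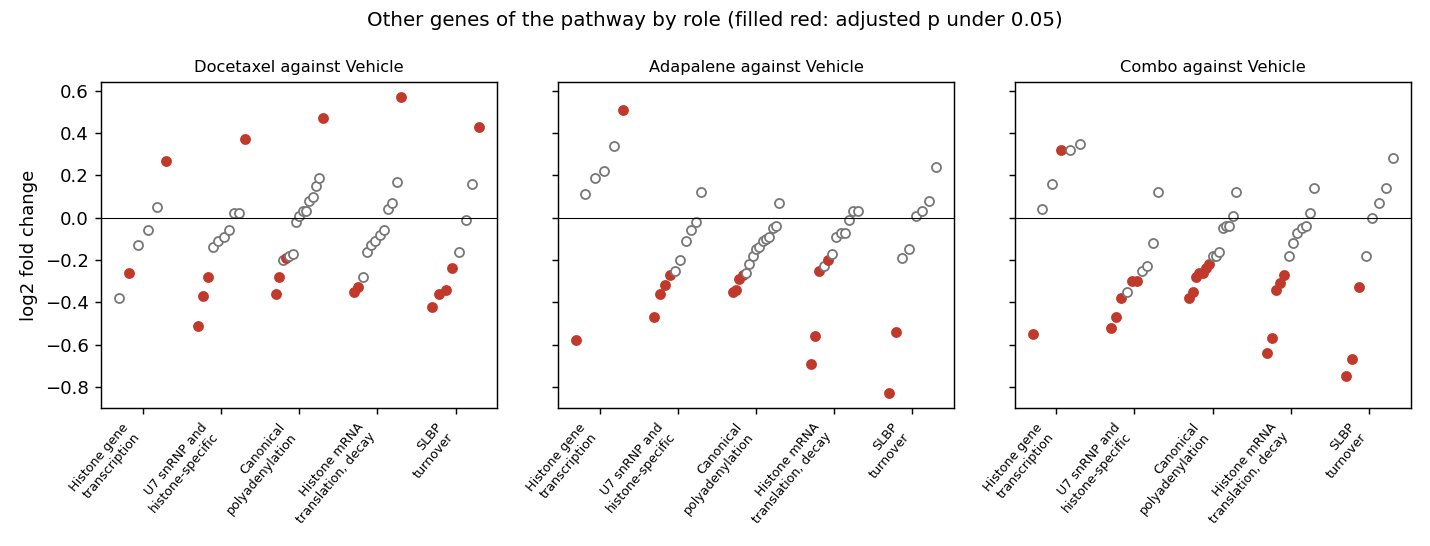
Log2 fold change against Vehicle (y axis) of the 51 tested other genes of the pathway, grouped by role on the x axis and ordered by value within it. Filled red points have an adjusted p under 0.05: 5 higher and 13 lower with docetaxel, 1 and 15 with adapalene, and 1 and 21 with both drugs.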

How the data were processed

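Polyadenylated RNA was sequenced as stranded single reads of 120 bases, per the labels' protocols. Per the submitters' processing notes, STAR 2.7.10a, FastQC and DESeq2 were used with GRCh38.p13. The counting method (program, strand, multiple mapping) was not given in the sources used here. Raw counts per gene were used as the authors deposited them.

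In R 4.3.3, edgeR 4.0.16 filtered genes (filterByExpr, minimum count 10, minimum total 15), scaled 13 libraries by TMM and fitted 1 quasi-likelihood model with 4 group means. P-values were adjusted by Benjamini-Hochberg over 15734 genes. CPM values were computed from the counts, and log2 CPM for correlations used a prior count of 2. In data simulated for Docetaxel against Vehicle, the fit recovered 22% of genes changed 1.25-fold, 78% at 1.5-fold and 96% at 2-fold. The simulation changed 50 genes per size among 15734, all above a set mean level, while 25.9% were called in the data. Adjustment for many tests is stricter when fewer genes change, so these shares do not give the power of the real comparison. The 15 pairs of replicates within groups differed by 2.24 to 21.1 in chi-square per degree of freedom, so each library was counted once.

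Same-numbered Vehicle and Combo libraries deviated together from their group means (r = 0.257, 0.159 and 0.174), so that comparison was also fitted with the number as a block, although the labels state no pairing. DESeq2 1.42.0 and other alternatives are in the closing section. The 9 genes and all lists were chosen with earlier results of these data known. Named were the 9 genes, ATM, CSTF2T, the genes most like SLBP and CPSF3, and the 3 called genes of lowest p per role. Of the other pathway genes, some were given outside that rule. SNRPB, SNRPE and SNRPG are the remaining Sm proteins of the list, and ZNF473, PCF11 and FEM1C were named after their values were seen. Coordinates and transcripts are from GENCODE 29, promoters from RefSeq on GRCh38.p14.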

Additional observations from a re-analysis of the deposited data

Results flagged for a closer look

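In Docetaxel, CSTF2 in replicate 4 stood at 69.1 CPM, apart from 81.5 to 83.9 CPM in the other 3 libraries. In the same library ATM stood at 82.2 CPM, apart from 67.1 to 69.6 CPM. Dixon's test at 95% picked out these 2 values among 26 gene and group combinations looked at, and chance alone picks about 1 in 20. Docetaxel replicate 4 is also 1 of the 4 libraries with over 2% mitochondrial counts.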

How the results depend on the processing

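Of 1008 refitted fold changes of the 8 genes, 985 stayed on their side of the threshold, 19 lost their call and 4 gained one. Of those called in the main or the alternative fit, 0 changed direction. For fold changes called in neither fit, many of them near 0, a change of direction was not counted. NPAT with docetaxel (log2 −0.32 to −0.25) and CPSF3 with docetaxel (−0.45 to −0.35) kept their call in 21 of 21 alternatives, and CPSF3 with both drugs (−0.43 to −0.33) in 22 of 22. CPSF3 with adapalene kept it in 14 of 21, LSM11 between Combo and Docetaxel in 12 of 21 and CSTF2 in the same comparison in 18 of 21. The number of the 8 genes called with docetaxel was 2 in all 21. With adapalene it was 1, became 0 when only the groups compared were fitted and 3 without the 4 libraries of high mitochondrial share (LSM10 at −0.33, adjusted p = 0.0277, and CSTF2 at −0.33, adjusted p = 0.0363, were added), and ran from 0 to 1 with a library left out. With both drugs it ran from 1 to 2 with a library left out, CSTF2 being called at −0.32 (adjusted p = 0.0367) without Combo replicate 1. Between Combo and Docetaxel NPAT gained a call without the libraries of high mitochondrial share (0.23, adjusted p = 0.0489). The number there was 2, became 1 with no filter on low counts and ran from 0 to 2 with a library left out. The replicate block left 1 call there, since LSM11 reached an adjusted p of 0.0804, and it changed no other call of the 8 genes. Number 4 occurs only in Docetaxel, so under the block that library added nothing to the comparisons. The block also set Docetaxel replicate 3, at 0.722% mitochondrial counts, beside replicate 3 of the other groups at over 2%. Every Vehicle library correlated best with the Combo library of its own number (3 of 3), against 0 of 3 with Docetaxel and with Adapalene. Docetaxel replicate 4 was not in that check. Scaled by the longest transcript, Vehicle levels were 8.93 CPM per kb for NPAT, 36.9 for LSM10, 39 for CPSF3, 11.3 for SYMPK and 1.49 for ERI1, because the length used is shorter. ERI1 had 79 to 129 counts per library, and its intervals were the widest of the 8 genes in each comparison with Vehicle.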
